A study of Mus musculus with 6 samples.

Results

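The solute carriers measured here are 194 protein-coding genes chosen by their symbol, which starts with Slc, a family number, the letter a and a member number, and selected on their measured level. Of 17313 mouse genes in the deposited table, 230 protein-coding genes carried such a symbol, and those reaching 10 or more in 3 or more of the 6 libraries were kept, the filter that also left 13260 genes for testing. The libraries are poly(A) RNA-seq of macrophages grown in culture from the bone marrow of C57BL/6 mice whose Hdac2 alleles were flanked by loxP sites. LLC1 cells, from a Lewis lung carcinoma line of the mouse, had been injected intravenously into every animal, and marrow was taken on day 20. The WT group (BM-H, Hdac2fl/fl without Cre, 3 libraries) was compared with the KO group (BM-HL, Hdac2fl/fl with LysM-Cre, 3 libraries), to ask how loss of the histone deacetylase HDAC2 in macrophages of tumour-bearing mice alters their RNA. LysM-Cre is expressed from the lysozyme gene Lyz2 and acts in myeloid cells, so other cells of the culture keep the floxed gene. Age is not in the labels, nor is it stated that libraries derive from different animals, and p-values therefore reflect only how these samples vary, which may in part be technical. Values are the authors' normalized and rounded read counts, called scaled counts, and a difference is the KO mean less the WT mean of log2(value + 1), given with its standard error from the limma fit. Libraries are named WT 1 to WT 3 and KO 1 to KO 3.

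Solute carriers are membrane proteins that move ions, nutrients and metabolites across the cell surface and across the membranes of lysosomes, mitochondria and the Golgi, mostly by coupling transport to a gradient or by exchanging substrates. Families are numbered by sequence, and members of a family often share a class of substrate. In macrophages they feed arginine, glutamine and glucose metabolism, export lactate, and move iron, heme, nucleosides and peptides out of the compartments that digest engulfed cells and microbes.

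The groups were checked before the members were read. Hdac2 (chromosome 10, 36974544 to 37001889) had scaled counts of 534, 482 and 518 (WT) and 392, 387 and 375 (KO), and Lyz2 had 1068, 1144 and 1055 (WT) and 930, 942 and 953 (KO), both without overlap (two-sided exact permutation p = 0.1 each, the smallest that 3 against 3 allows). Which exon Cre removes was not stated. Library totals ran from 5704313 to 5837994, and the solute carriers took 1.51% to 1.71% of each. The WT libraries did not form 1 group and differed in sex-linked genes. Xist, which is expressed from the inactive X chromosome of females, was at 5243, 0 and 74 (WT) and at 3298 to 4997 (KO). The Y-linked gene Kdm5d was at 34, 473 and 482 (WT) and 5, 0 and 0 (KO), Uty had 23, 179 and 432 (WT) and 0 in every KO library, and Ddx3y and Eif2s3y showed the same split. The first principal component, with 78.6% of the variance, set WT 2 and WT 3 (72.03 and 54.6) apart from WT 1 (-12.7) and the KO libraries (-51.5 to -19.9). Removing WT 1 leaves genotype and the sex-linked split coinciding, so they cannot be told apart in that fit. Counts are therefore given with all libraries and with WT 1 left out, and many of the named genes also against WT 1 alone. For every gene whose groups do not overlap, the direction against WT 1 was fixed in advance and is no separate check.

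Markers of stroma differed along the same split. The 14 fibroblast and stroma markers summed to 17853 in WT 1, 7504 in WT 2, 7922 in WT 3 and 18509 to 23153 in KO, and all 12 that were tested were higher in the KO mean, while Lum was at 0 in 3 libraries and Lepr in 2. The 12 macrophage markers summed to 16107 to 17119 in WT and 15469 to 15963 in KO, and 3 of the 12 were higher in the KO mean. The 7 of 8 osteoclast markers in the table summed to 2785 in WT 1, 4278 in WT 2, 3904 in WT 3 and 2279 to 2629 in KO. Of the 6 osteoclast markers tested, 2 were higher in the KO mean. The 5 endothelial markers summed to 194, 96 and 95 (WT) and 166 to 183 (KO). In the osteoclast and endothelial sums WT 1 thus also lay toward KO. Few values came from the erythroid markers (1 of 8 had values, 12 to 14 in WT and 10 to 15 in KO), neutrophil markers (1 of 8, 20 to 26 and 9 to 15), T and B cell markers (2 of 7, 119 to 156 and 147 to 189), epithelial or lung carcinoma markers (2 of 5, 2 to 25 and 74 to 101) and adipocyte markers (1 of 4, 209 to 287 and 164 to 187). In bulk RNA, fewer cells of a type and less RNA per cell cannot be told apart. The part of these cells in the differences below was not tested.

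The solute carriers had a median size of difference of 0.16, against 0.14 for all tested genes, and none of the 194 passed limma's test once p-values were adjusted (Benjamini-Hochberg) across the 13260 genes (smallest adjusted p = 0.158, 0% of all genes called). At an unadjusted p under 0.05, 30 members were higher in KO (15.5%, against 14.7% of all tested genes) and 33 were lower (17.01%, against 9.68%). All KO libraries lay above all WT libraries in 30 members (15.5%, against 16.1% of all genes) and below them in 32 (16.5%, against 13.4%). At an unadjusted p there were 21 higher and 12 lower without WT 2 (10.8% and 6.19%, all genes 9.63% and 5.84%). Without WT 3 there were 16 and 14 (8.25% and 7.22%, all genes 8.18% and 4.75%). Leaving out KO 1 gave 16 higher and 8 lower (8.25% and 4.12%, all genes 7.19% and 3.54%). Leaving out KO 2 gave 19 and 10 (9.79% and 5.15%, all genes 8.35% and 3.63%). Leaving out KO 3 gave 27 and 32 (13.9% and 16.5%, all genes 12.6% and 9.89%). The share lower was thus near that of all genes without WT 2 and without KO 1. The median difference was -0.031 over the members and -0.0046 over all tested genes. The KO mean was higher in 84 members (43.3%, against 49.1% of all tested genes), the share to set beside the class counts below. Of the 194, 177 had at least 10 in every library. Slc38a4 and Slc52a3 passed the filter through the KO libraries alone, so their difference follows in part from the filter.

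The direction went with the level of the gene. Among the 47 members with a mean under 100 scaled counts, 32 had a higher KO mean and the median difference was 0.26, and among the 79 with a mean of at least 500, 20 did and the median was -0.10. All tested genes showed the same order, with medians of 0.23 and -0.063 and a higher KO mean in 67.6% and 30.8% of them. At an unadjusted p under 0.05, 17 of the 47 low members were higher (36.2%, against 25.3% of all genes of that level) and 5 lower (10.6%, against 4.47%). Of the 79 high members, 3 were higher (3.80%, against 6.84%) and 23 lower (29.1%, against 18.2%). The order by level was thus shared with all genes. The low members include Slc38a4 and Slc52a3, which passed the filter through the KO libraries alone, while 0 passed through the WT libraries alone. The counts of low members higher in KO therefore follow in part from the filter.

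**Figure D1:**
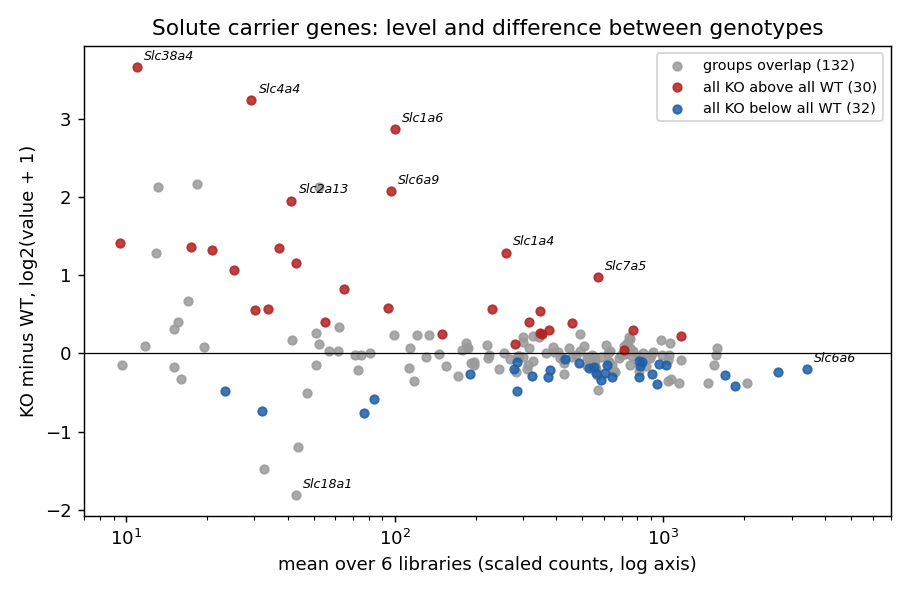
Each point is 1 of the 194 solute carrier genes, with its mean over 6 libraries in scaled counts on a log axis and the KO minus WT difference of log2(value + 1). Red points (30) had every KO library above every WT library and blue points (32) every KO library below. The differences above 1 are at the low to middle levels, and the 5 genes with the highest means lie between -0.42 and -0.20.

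Without WT 1 the test of KO against WT 2 and WT 3 called 25 members higher (12.9%, against 12.8% of all tested genes) and 18 lower (9.28%, against 5.07%). Of WT 1's values, those closer to KO than to the average of the other WT libraries came from 131 of the 194 members (67.5%, against 63.4% of all tested genes). The median over the members was -0.046 without WT 1 and -0.012 for the KO mean against WT 1.

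**Figure D2:**
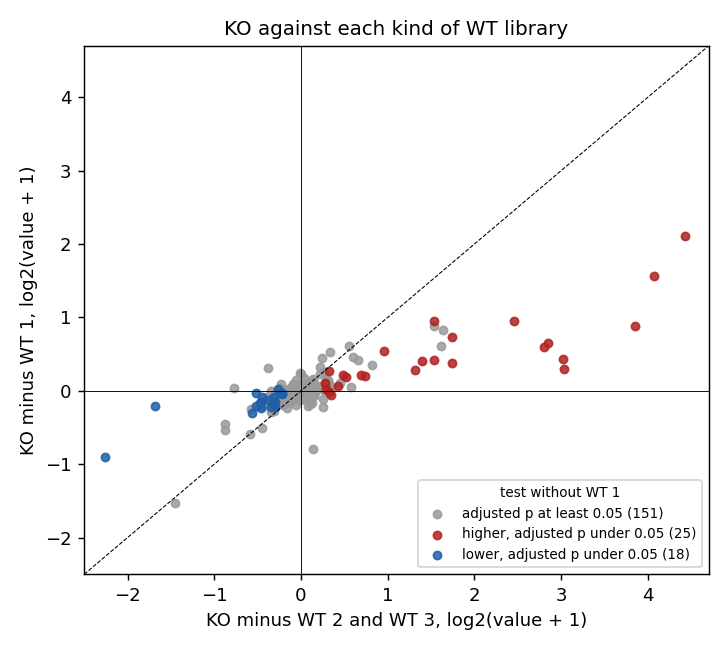
Each point is 1 solute carrier gene, with the KO mean minus the mean of WT 2 and WT 3 on the horizontal axis and the KO mean minus WT 1 on the vertical axis, both on the log2(value + 1) scale. Colours mark the limma test without WT 1 (25 higher, 18 lower), and the dashed line marks equal differences. All 25 red points lie below that line, where the difference from WT 1 was the smaller. They were picked by the test on the horizontal axis, which favours a larger value there.

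The series names the transcription factor SP1 beside HDAC2, and SP1 binds GC boxes, so the promoters of members were searched for GGGCGG on both strands in the 250 bases before each RefSeq start (GRCm38.p6, the build also called mm10). The RefSeq table gave promoters, matched by symbol, for 145 of the 194 members (194 start sites). The motif was in 62.9% of the promoters of members, against 56.8% for all tested genes and 32.7% of all 32851 promoters. It was in 21 of 30 start sites (21 genes) of members whose KO values all lay above WT, and in 20 of 32 (25 genes) where they all lay below. Of the rest, 61.4% held it. A gene with several start sites counts more than once. A match describes letters only and is not a bound site. The promoters below show 3 members with higher KO means (Slc1a4, Slc1a6, Slc6a9) and 3 with lower KO means (Slc29a3, Slc44a1, Slc11a1), 5′ to 3′ on the strand of the gene, with GC boxes in capitals. They lie at chr11:20332714-20332963 (minus), chr10:78780246-78780495 (plus), chr4:117835008-117835257 (plus), chr10:60752783-60753032 (minus), chr4:53440163-53440412 (plus) and chr1:74374953-74375202 (plus). The start used for Slc6a9 lies 752 bases from the start of the gene in the deposited table, and those of the others within 12 bases.
Slc1a4: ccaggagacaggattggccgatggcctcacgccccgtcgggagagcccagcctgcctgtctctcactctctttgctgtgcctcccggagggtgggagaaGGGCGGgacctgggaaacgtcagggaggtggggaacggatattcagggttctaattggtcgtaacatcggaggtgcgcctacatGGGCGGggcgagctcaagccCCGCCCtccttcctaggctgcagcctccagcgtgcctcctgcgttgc
Slc1a6: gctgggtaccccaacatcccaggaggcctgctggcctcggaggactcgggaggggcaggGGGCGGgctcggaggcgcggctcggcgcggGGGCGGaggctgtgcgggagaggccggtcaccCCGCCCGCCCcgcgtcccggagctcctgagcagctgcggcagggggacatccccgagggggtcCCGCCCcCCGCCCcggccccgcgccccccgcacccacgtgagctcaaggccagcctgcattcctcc
Slc6a9: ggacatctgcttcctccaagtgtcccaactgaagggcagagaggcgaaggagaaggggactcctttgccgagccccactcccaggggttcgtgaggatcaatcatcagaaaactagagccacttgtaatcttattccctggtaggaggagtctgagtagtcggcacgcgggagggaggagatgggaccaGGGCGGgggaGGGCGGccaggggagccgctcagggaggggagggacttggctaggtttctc
Slc29a3: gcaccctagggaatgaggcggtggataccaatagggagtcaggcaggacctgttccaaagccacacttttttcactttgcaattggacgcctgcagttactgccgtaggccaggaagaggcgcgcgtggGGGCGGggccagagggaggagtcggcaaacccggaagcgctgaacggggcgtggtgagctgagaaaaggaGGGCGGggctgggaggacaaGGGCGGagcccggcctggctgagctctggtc
Slc44a1: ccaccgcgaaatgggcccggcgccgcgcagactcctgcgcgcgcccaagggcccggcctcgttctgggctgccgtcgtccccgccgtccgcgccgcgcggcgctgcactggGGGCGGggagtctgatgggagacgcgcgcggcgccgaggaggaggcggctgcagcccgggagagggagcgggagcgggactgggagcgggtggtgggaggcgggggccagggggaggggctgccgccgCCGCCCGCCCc
Slc11a1: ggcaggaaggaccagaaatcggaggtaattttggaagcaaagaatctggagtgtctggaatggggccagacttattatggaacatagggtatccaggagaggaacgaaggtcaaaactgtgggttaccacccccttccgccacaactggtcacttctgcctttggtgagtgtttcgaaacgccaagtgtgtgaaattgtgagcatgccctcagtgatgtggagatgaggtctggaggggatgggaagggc
The promoter of Slc1a6 held 6 matches counting overlaps, those of Slc1a4, Slc29a3 and Slc44a1 held 3 each, that of Slc6a9 held 2, and that of Slc11a1 held 0. Matches were thus found before genes of both directions.

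By level per exonic length, the leading solute carrier was Slc6a6, the taurine transporter, at 404 scaled counts per kilobase of exon. Slc48a1, which carries heme out of the phagolysosome, followed at 389. Slc7a8, a carrier of neutral amino acids, was at 314, Slc15a3, a lysosomal carrier of peptides and histidine, at 308, and Slc37a2, a sugar-phosphate exchanger, at 307. The scaffold gene Slc9a3r1, at 315, and Slc25a11, Slc6a8, Slc11a1 and Slc25a5, from 277 to 290, complete the 10 highest. Slc7a8 was at 1687, 1563 and 1510 (WT) and 1503, 1520 and 1652 (KO), with overlapping groups and a difference of -0.026 ± 0.063, which changed sign under cyclic loess (0.071) and without WT 1 (0.019).

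Amino acid and peptide carriers (29 genes) had members on both sides, with 16 higher in the KO mean and a median of 0.083. In this class 8 members had every KO library above WT and 5 every one below (27.6% and 17.2%, against 16.1% and 13.4% of all tested genes). Without WT 1 the limma test called 8 higher and 4 lower (12.8% and 5.07% of all tested genes). Both counts of 8 include Slc38a4, which passed the filter through the KO libraries alone. Slc7a5 (LAT1, which imports leucine and other large neutral amino acids, chromosome 8, 121881150 to 121907694) was at 605, 319 and 275 (WT) and 775, 728 and 718 (KO). All 3 KO libraries lay above WT 1, and WT 1 lay far above the other WT libraries. The difference was 0.98 ± 0.28, 1.32 without WT 1 (adjusted p = 0.000634, limma), and 0.29 against WT 1. Its heavy-chain partner Slc3a2 was instead slightly lower in KO, at 952, 1095 and 975 (WT) and 891, 898 and 951 (KO), a difference of -0.14 ± 0.067 without overlap and with no call without WT 1 (adjusted p = 0.146, limma).

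Slc1a4 (ASCT1, a carrier of serine, alanine and cysteine, chromosome 11, 20302180 to 20332713) was at 272, 108 and 102 (WT) and 428, 341 and 304 (KO). Slc1a6 (EAAT4, a glutamate transporter best known from Purkinje neurons, chromosome 10, 78780496 to 78814765) was at 85, 9 and 11 (WT) and 226, 165 and 104 (KO). In both, the KO libraries lay above all WT libraries and WT 1 lay between them and the other WT libraries. The differences were 1.29 ± 0.39 and 2.86 ± 0.85, and 0.38 and 0.88 against WT 1. Without WT 1 they were 1.74 and 3.85, both called (adjusted p = 0.00146 and 0.00144, limma). The summed stroma markers were likewise higher in WT 1 than in WT 2 and WT 3, and their part in these genes was not tested. Slc38a4, a sodium-coupled carrier of neutral amino acids, was at 4, 0 and 0 (WT) and 20, 24 and 18 (KO), and thus listed at 0 in WT 2 and WT 3. Its fitted difference of 3.65 depends on the pseudocount and is no bound.

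Slc7a6, an exchanger of arginine for neutral amino acids, stood at 444, 352 and 388 (WT) and 541, 499 and 509 (KO), with every KO library above WT, a difference of 0.39 ± 0.093, and 0.22 against WT 1 (adjusted p = 0.00962 without WT 1, limma). The related arginine importer Slc7a2, at 407, 361 and 354 (WT) and 449, 429 and 321 (KO), overlapped between the groups, with a difference of 0.083 ± 0.14 that turned to -0.0084 without KO 1. The cystine and glutamate exchanger Slc7a11, at 129, 108 and 159 (WT) and 145, 155 and 89 (KO), also overlapped, at -0.048 ± 0.25, which turned to 0.20 without KO 3 and 0.094 without WT 3. The glutamine carrier Slc1a5 was at 487, 529 and 452 (WT) and 536, 488 and 546 (KO), again with overlap. Slc43a1, a neutral amino acid carrier close to the filter, was at 11, 8 and 3 (WT) and 27, 10 and 19 (KO).

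The lysosomal carrier Slc15a3 (chromosome 19, 10839727 to 10859362) was at 1786, 1945 and 1828 (WT) and 1484, 1445 and 1661 (KO), with every KO library below WT. The difference was -0.28 ± 0.069, -0.30 without WT 1 (adjusted p = 0.0487, limma) and -0.23 against WT 1. Its relative Slc15a4, needed for signalling by nucleic acid receptors in endosomes, was at 481, 597 and 577 (WT) and 492, 487 and 491 (KO). WT 1 lay below every KO library and the other WT libraries above, and the difference of -0.16 was 0.027 against WT 1. Slc38a9, the lysosomal arginine sensor of the mTORC1 pathway, was at 507, 589 and 639 (WT) and 496, 547 and 512 (KO), with WT 1 inside the KO range. Slc66a2, of the same class, was at 589, 752 and 634 (WT) and 486, 493 and 577 (KO), without overlap and at -0.34 ± 0.11, and was not called without WT 1 (adjusted p = 0.0544, limma).

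**Figure D3:**
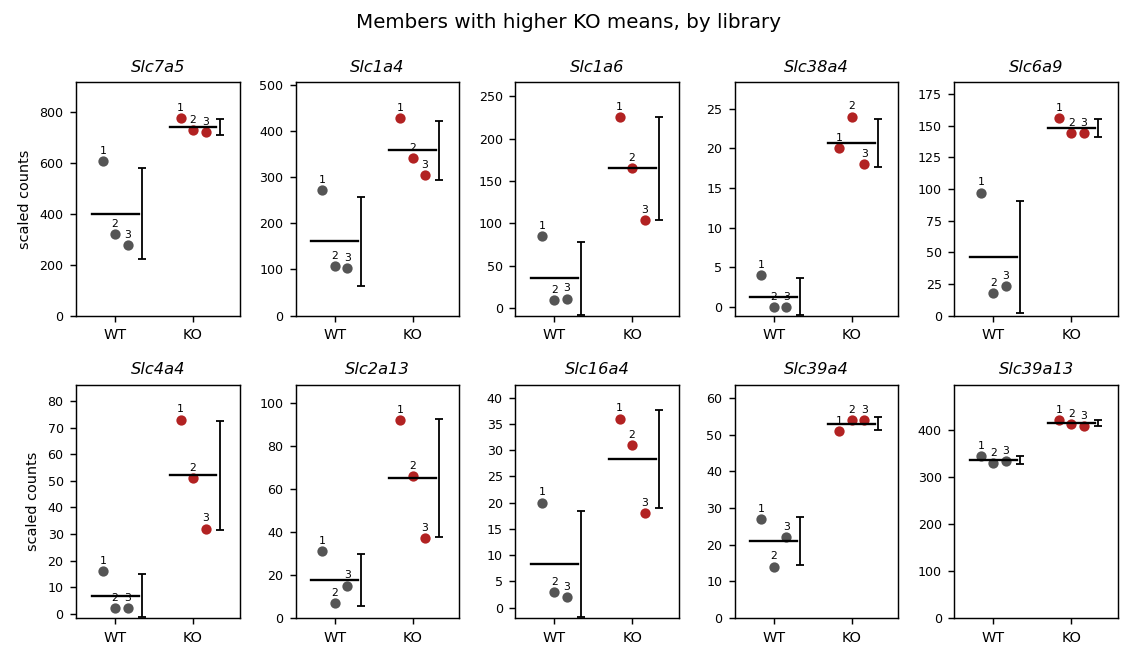
Scaled counts of 10 solute carriers with a higher KO mean, 1 panel per gene on its own linear axis. Points are libraries with their number, lines are means and bars SD (n = 3 each). In all panels except Slc39a13 and Slc39a4, WT 1 stands apart from WT 2 and WT 3 and toward KO, and in Slc39a13 the 3 WT libraries lie together.

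Carriers of neurotransmitters and osmolytes (7 genes, median -0.20) had 2 members higher in the KO mean (28.6%, against 49.1% of all tested genes). The 5 lower members included the gene with the highest level per exonic length. Slc6a6 (chromosome 6, 91684053 to 91759066) was at 3405, 4003 and 3543 (WT) and 3075, 3177 and 3287 (KO), every KO library below WT, at -0.20 ± 0.074 (adjusted p = 0.0793 without WT 1, limma). The creatine transporter Slc6a8 was at 1471, 1945 and 1566 (WT) and 1140, 1226 and 1471 (KO), where WT 1 and KO 3 had the same value, at -0.37 ± 0.14. The glycine transporter Slc6a9 (GLYT1, chromosome 4, 117834506 to 117875198) went the other way, at 97, 18 and 23 (WT) and 156, 144 and 144 (KO). Every KO library lay above WT, and WT 1 lay at several times the level of WT 2 and WT 3. The difference was 2.07 ± 0.61, 2.80 without WT 1 (adjusted p = 0.000536, limma) and 0.60 against WT 1. Slc18a1, a vesicular monoamine transporter, was at 32, 91 and 77 (WT) and 13, 10 and 35 (KO), with overlap through WT 1 and KO 3 and a difference of -1.81 ± 0.58 (-0.90 against WT 1). The synaptic vesicle carrier Slc6a17 was at 26, 32 and 23 (WT) and 37, 43 and 41 (KO), higher in KO without overlap, at 0.57 ± 0.19.

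Sugar and sugar phosphate carriers (16 genes, median -0.048, 7 higher in the KO mean) included the glucose transporters of macrophages. Slc2a1 (GLUT1) was at 748, 901 and 727 (WT) and 678, 676 and 794 (KO), with overlapping groups and a difference of -0.14 ± 0.11. Slc2a3 (GLUT3) was far lower in level and higher in KO, at 84, 83 and 61 (WT) and 98, 117 and 125 (KO), without overlap, at 0.58 ± 0.17 and 0.42 against WT 1, but without a call when WT 1 was left out (adjusted p = 0.0651, limma). Slc2a13, a proton-coupled carrier of myo-inositol, was at 31, 7 and 15 (WT) and 92, 66 and 37 (KO), without overlap, with WT 1 above the other WT libraries. The difference was 1.95 ± 0.58 and 0.95 against WT 1 (adjusted p = 0.0212 without WT 1, limma). Slc37a2, abundant in macrophages, was at 2044, 2559 and 2302 (WT) and 1681, 1604 and 2065 (KO). The groups overlapped only through WT 1 and KO 3, and the difference was -0.37 ± 0.12.

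Monocarboxylate and dicarboxylate carriers (11 genes, median -0.015) showed no common direction, with 5 higher in the KO mean. The lactate carriers were close between groups. Slc16a1 (MCT1) was at 299, 307 and 280 (WT) and 269, 277 and 278 (KO), slightly lower in every KO library, at -0.10 ± 0.062. Slc16a3 (MCT4, the main lactate exporter of glycolytic cells) was at 791, 709 and 618 (WT) and 795, 762 and 830 (KO), a difference of 0.18 ± 0.10, which was 0.0076 against WT 1. Slc16a10, a carrier of aromatic amino acids, was at 1115, 1417 and 1344 (WT) and 923, 905 and 1165 (KO), lower in the KO mean with WT 1 inside the KO range. The difference was -0.37 ± 0.13 and -0.17 against WT 1 (adjusted p = 0.046 without WT 1, limma). At a low level, Slc16a4 was at 20, 3 and 2 (WT) and 36, 31 and 18 (KO). It was under 10 in WT 2 and WT 3 alone, and the difference of 2.16 ± 0.78 was 0.43 against WT 1. Slc13a2, a kidney and gut carrier of citrate and succinate, was at 28, 30 and 24 (WT) and 20, 19 and 19 (KO), lower in KO without overlap.

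Nucleoside, nucleotide sugar and acetyl-CoA carriers (10 genes) had 1 member higher in the KO mean (10%, against 49.1% of all tested genes). Their median was -0.062. Slc29a3 (ENT3, which releases nucleosides from lysosomes, chromosome 10, 60712072 to 60752794) was at 935, 1078 and 967 (WT) and 817, 817 and 840 (KO). Its KO libraries lay within a narrow range below all WT libraries. The difference was -0.27 ± 0.063, -0.31 without WT 1 (adjusted p = 0.0267, limma) and -0.18 against WT 1. Slc28a2, which imports purine nucleosides with sodium, was at 291, 359 and 344 (WT) and 209, 232 and 273 (KO), without overlap, at -0.48 ± 0.13 and -0.30 against WT 1 (adjusted p = 0.0297 without WT 1, limma). A near copy, Slc28a2b, and an overlapping pseudogene may share its reads. Slc35a4 was at 622, 680 and 655 (WT) and 583, 592 and 641 (KO), with overlap through WT 1 and KO 3.

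Vitamin, choline and heme carriers (12 genes, median -0.055) had 3 members called lower and 1 called higher without WT 1 (5.07% and 12.8% of all tested genes). Slc44a1 (CTL1, a choline importer, chromosome 4, 53440413 to 53622478) was at 962, 1115 and 1133 (WT) and 774, 813 and 862 (KO). The KO libraries lay below all WT libraries, at -0.39 ± 0.079, -0.46 without WT 1 (adjusted p = 0.0065, limma) and -0.24 against WT 1. Slc23a2 (SVCT2, the ascorbate importer) was at 1812, 2478 and 2034 (WT) and 1431, 1483 and 1809 (KO), where WT 1 and KO 3 nearly met. The difference was -0.42 ± 0.14 and -0.21 against WT 1 (adjusted p = 0.0481 without WT 1, limma). Slc48a1 was at 1000, 1376 and 1212 (WT) and 911, 908 and 1011 (KO), with WT 1 below KO 3. The difference was -0.33 ± 0.12 and -0.086 against WT 1 (adjusted p = 0.0172 without WT 1, limma). The riboflavin carrier Slc52a3 was low throughout, at 8, 3 and 4 (WT) and 13, 14 and 15 (KO), above WT in every KO library. It was the member called higher without WT 1, but it passed the filter through the KO libraries alone. Its difference and that call therefore follow in part from the filter.

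**Figure D4:**
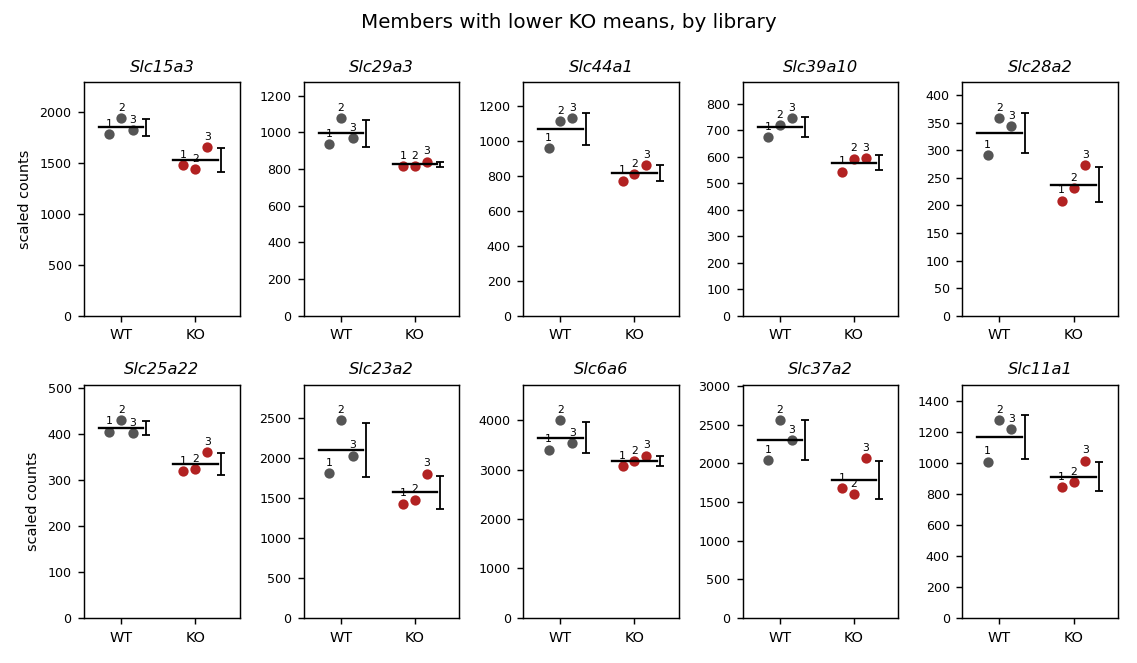
Scaled counts of 10 solute carriers with a lower KO mean, 1 panel per gene on its own linear axis from 0. Points are libraries with their number, lines are means and bars SD (n = 3 each). The groups do not overlap except in Slc37a2 and Slc11a1, where WT 1 lies just below KO 3.

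Zinc carriers (18 genes, median 0.0065, 10 higher in the KO mean) had 3 members called higher and 1 lower without WT 1 (12.8% and 5.07% of all tested genes). They held the member with the smallest p of the 194. Slc39a13 (ZIP13, a zinc carrier of the secretory pathway known for its role in connective tissue, chromosome 2, 91061791 to 91070417) was at 344, 329 and 333 (WT) and 420, 412 and 408 (KO). The WT values lay close together, all below KO, at 0.30 ± 0.049 (unadjusted p = 0.000785, limma), 0.32 without WT 1 (adjusted p = 0.0181, limma) and 0.26 against WT 1. Slc39a4 (ZIP4, the intestinal zinc importer) was at 27, 14 and 22 (WT) and 51, 54 and 54 (KO), at 1.34 ± 0.26 and 0.95 against WT 1 (adjusted p = 0.0103 without WT 1, limma). Slc39a10 (ZIP10) was lower, at 674, 720 and 747 (WT) and 544, 593 and 595 (KO). All its KO libraries lay below WT, at -0.31 ± 0.062, -0.22 against WT 1 (adjusted p = 0.019 without WT 1, limma). As for every gene without overlap, the direction of these 3 genes against WT 1 was fixed in advance. Slc39a14 (ZIP14, a zinc, iron and manganese importer) was at 813, 645 and 620 (WT) and 817, 832 and 900 (KO), where WT 1 reached nearly the lowest KO value, at 0.30 ± 0.11 and 0.062 against WT 1. Slc39a8 (ZIP8), at 413, 355 and 404 (WT) and 376, 408 and 401 (KO), overlapped, at 0.018 ± 0.076, and turned to -0.049 without WT 2, -0.0056 without KO 2 and -0.065 against WT 1.

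Carriers of iron, manganese, copper and magnesium (8 genes) had 2 members higher in the KO mean (25%, against 49.1% of all tested genes). Their median was -0.20, -0.24 without WT 1 and -0.10 against WT 1. Slc11a1 (NRAMP1, which removes iron and manganese from the phagosome, chromosome 1, 74375195 to 74386062) was at 1008, 1275 and 1218 (WT) and 842, 878 and 1014 (KO). WT 1 lay just below KO 3, so the groups overlapped, and the difference was -0.35 ± 0.11, called without WT 1 (adjusted p = 0.0228, limma) and -0.15 against WT 1. Its paralog Slc11a2 (DMT1) was at 636, 801 and 704 (WT) and 570, 598 and 645 (KO), again with WT 1 below KO 3. The iron exporter Slc40a1 (ferroportin) was at 830, 824 and 937 (WT) and 804, 804 and 784 (KO), below WT in every KO library by a small margin, at -0.11 ± 0.062. Of the magnesium carriers, Slc41a2 was at 837, 957 and 905 (WT) and 678, 690 and 823 (KO) and Slc41a1 at 315, 350 and 281 (WT) and 397, 353 and 385 (KO). They lay on opposite sides, both without overlap, at -0.30 ± 0.093 and 0.27 ± 0.10.

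Proton, bicarbonate, sodium, calcium and chloride exchangers (22 genes, median -0.026) had 5 of 22 members without overlap (22.7%, against 29.5% of all tested genes). Slc4a4 (NBCe1, a sodium bicarbonate cotransporter, chromosome 5, 88886486 to 89239653) stood apart at a low level, at 16, 2 and 2 (WT) and 73, 51 and 32 (KO). Every KO library was above WT 1, itself above the other WT libraries, at 3.23 ± 0.75 and 1.56 against WT 1 (adjusted p = 0.00196 without WT 1, limma). As WT 2 and WT 3 were at 2, the size of the differences that include them depends on the pseudocount. The anion exchanger Slc4a3 was at 56, 46 and 38 (WT) and 88, 90 and 70 (KO), without overlap, at 0.82 ± 0.19 and 0.54 against WT 1. Slc24a5, a cation exchanger known from melanosomes, was at 100, 112 and 89 (WT) and 62, 60 and 78 (KO), lower in every KO library, at -0.59 ± 0.16, of the same size against WT 1 (-0.59).

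Phosphate and sulphate carriers (5 genes, median 0.13) included Slc20a2 (PiT2, a sodium phosphate cotransporter), at 317, 260 and 243 (WT) and 385, 359 and 337 (KO), above WT in every KO library. The difference of Slc20a2 was 0.40 ± 0.11 and 0.18 against WT 1 (adjusted p = 0.0124 without WT 1, limma). Its paralog Slc20a1 (PiT1) was at 1183, 943 and 900 (WT) and 1012, 1082 and 1207 (KO), with overlap and a difference of 0.13 ± 0.12 that turned to -0.11 against WT 1. The anion carriers Slc26a11, at 300, 348 and 263 (WT) and 340, 398 and 323 (KO), and Slc26a6, at 144, 177 and 170 (WT) and 137, 135 and 166 (KO), overlapped.

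Fatty acid and bile acid carriers (6 genes, median -0.084) held Slc27a3, an acyl-CoA synthetase of the fatty acid transport family, at 15, 14 and 6 (WT) and 41, 30 and 19 (KO), and Slc27a6, a relative, at 32, 58 and 32 (WT) and 18, 22 and 31 (KO). Neither overlapped between groups, and they lay on opposite sides, at 1.32 ± 0.44 and -0.73 ± 0.33. Slc10a3 was at 245, 286 and 252 (WT) and 208, 229 and 245 (KO), with WT 1 equal to KO 3.

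Organic ion carriers (6 genes, median -0.0030) included the carnitine importer Slc22a5, at 199, 215 and 209 (WT) and 174, 163 and 183 (KO), lower in every KO library, at -0.26 ± 0.079. Slc22a18, an imprinted gene for an organic cation carrier, was at 81, 102 and 104 (WT) and 53, 42 and 78 (KO), also lower without overlap, at -0.76 ± 0.25. Slc22a17, which encodes a receptor for lipocalin-2, was at 25, 16 and 9 (WT) and 43, 32 and 27 (KO), higher in every KO library. The difference was 1.07 ± 0.40 and 0.40 against WT 1 (adjusted p = 0.0422 without WT 1, limma). The single urea carrier, Slc14a1, was at 26, 23 and 24 (WT) and 42, 32 and 35 (KO), above WT in every KO library, at 0.55 ± 0.19.

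**Figure D5:**
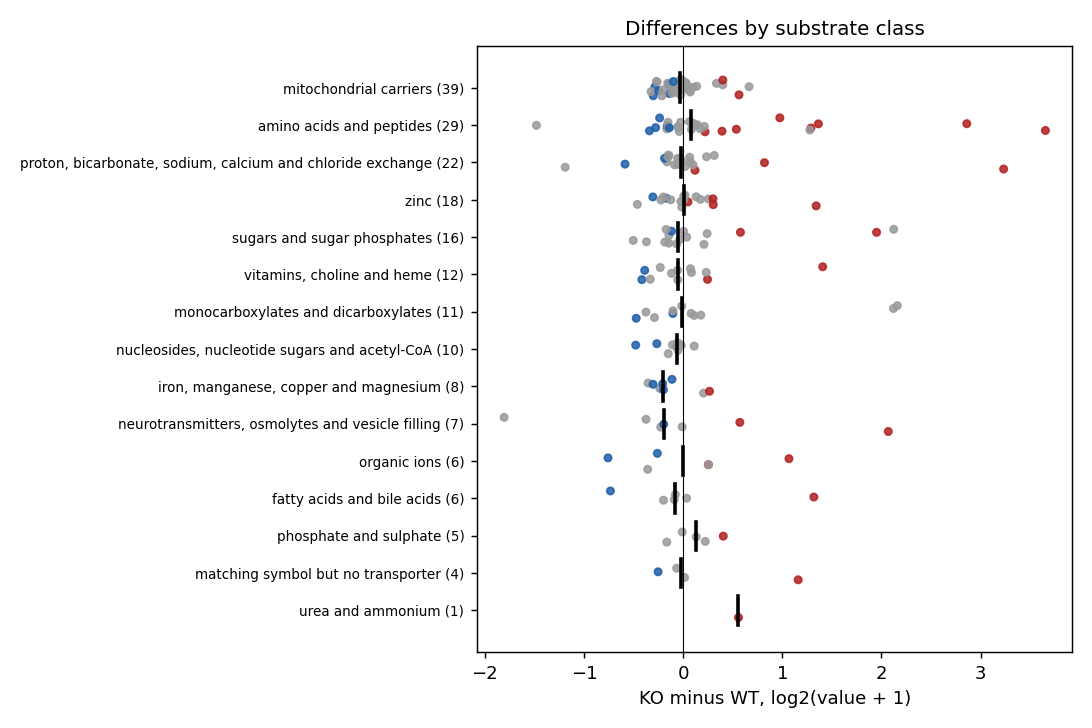
KO minus WT difference of log2(value + 1) of every member, by substrate class with the number of genes. Black bars are class medians, red points had every KO library above WT, blue points every one below, and grey points overlapped. The medians of classes with more than 1 gene run from -0.20 to 0.13.

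Mitochondrial carriers, the largest class with 39 genes, had differences from -0.32 to 0.67 with a median of -0.036, and 8 of the 39 were without overlap (20.5%, against 29.5% of all tested genes). The glutamate carrier Slc25a22 (chromosome 7, 141429744 to 141437892) was at 405, 430 and 402 (WT) and 319, 324 and 361 (KO). Every KO library lay below WT, at -0.30 ± 0.069 and nearly the same against WT 1 (-0.28), with adjusted p = 0.0518 without WT 1 (limma). Slc25a20, which carries acylcarnitines for fatty acid oxidation, was at 318, 405 and 347 (WT) and 291, 285 and 297 (KO), lower without overlap. The difference was -0.29 ± 0.10 and -0.13 against WT 1 (adjusted p = 0.0398 without WT 1, limma). Slc25a30 was at 564, 642 and 617 (WT) and 493, 486 and 559 (KO), lower without overlap. The calcium-regulated ATP-Mg and phosphate carrier Slc25a23 went the other way, at 237, 175 and 152 (WT) and 259, 278 and 284 (KO), at 0.56 ± 0.17 and 0.21 against WT 1 (adjusted p = 0.00559 without WT 1, limma). The oxoglutarate carrier Slc25a11 was at 623, 689 and 624 (WT) and 586, 586 and 581 (KO), slightly lower in every KO library. The ADP/ATP carrier Slc25a5, whose paralogs may take part of its reads, was at 465, 479 and 444 (WT) and 453, 436 and 456 (KO), with overlap.

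The symbol rule also took 4 genes that are no transporters. Slc9a3r1 (NHERF1), a scaffold that tethers membrane proteins, was at 615, 725 and 643 (WT) and 526, 555 and 580 (KO), lower without overlap, at -0.25 ± 0.076. Its relative Slc9a3r2 (NHERF2) was at 43, 21 and 18 (WT) and 70, 58 and 48 (KO), higher without overlap, at 1.16 ± 0.35. Slc7a6os, at 255, 295 and 271 (WT) and 287, 257 and 241 (KO), overlapped, and Slc4a1ap is the remaining gene. Without these 4, 29 of 190 members were higher and 31 lower without overlap (15.3% and 16.3%, against 16.1% and 13.4% of all tested genes).

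At the edge of the filter, Slc9a4, a sodium and proton exchanger, was taken at 7, 14 and 10 (WT) and 10, 7 and 10 (KO), followed by Slc43a1 above. Just outside it were Slc12a1, with 9, 0 and 2 (WT) and 15, 16 and 8 (KO), Slc26a10, at 8, 1 and 2 and at 9, 12 and 9, and Slc1a1, at 8, 4 and 4 and at 9, 9 and 5. In all, 36 protein-coding genes with a matching symbol were below the filter, with means up to 15.8. That highest mean belonged to Slc16a14, at 6, 45 and 27 (WT) and 7, 6 and 4 (KO), which reached 10 in WT 2 and WT 3 only.

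Solute carriers known by other symbols were read from a list of 52 genes, of which 43 were tested. Of these, 11 were higher in the KO mean (against 49.1% of all tested genes). The median was -0.067, and 0 passed after adjustment with all libraries (limma). At an unadjusted p under 0.05, 4 were higher and 7 lower (14.7% and 9.68% of all tested genes). Without WT 1, 3 were called higher and 5 lower (12.8% and 5.07% of all tested genes). Mfsd12, which imports cysteine into lysosomes and melanosomes, was at 1665, 2201 and 1891 (WT) and 1376, 1380 and 1571 (KO), lower without overlap, at -0.41 ± 0.11. Pqlc3 was at 712, 805 and 771 (WT) and 614, 634 and 642 (KO) and Slc35f6 at 1045, 1209 and 1112 (WT) and 923, 914 and 987 (KO), both lower without overlap. The prostaglandin transporter Slco2a1 was at 158, 57 and 35 (WT) and 252, 215 and 242 (KO), above WT in every KO library with WT 1 between, at 1.77 ± 0.52 and 0.57 against WT 1. The partner proteins of solute carriers in the list of 4 (Bsg, Emb, Ostm1, Tmem163) all had a lower KO mean, and none reached an unadjusted p under 0.05.

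Of the members, 48 overlap another gene of the table on the genome, among them Slc48a1, Slc15a3, Slc39a13, Slc6a9 and Slc18a1 with a protein-coding gene on the opposite strand. The library kit is stranded, but no source used here states whether strand was used in counting, so the reads of such pairs cannot be told apart.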

How the data were processed

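Poly(A) RNA of bone marrow-derived macrophages (3 µg per library) was sequenced as single reads of 72 bases from a stranded kit, per the labels' protocols. Per the submitters' processing notes, which give no order or role, Trimmomatic 0.39, STAR 2.7.10a, Picard 2.27.4, featureCounts 2.0.3, DESeq2 1.36.0 and the build mm10 were used. The values deposited by the authors are treated as a score, here called scaled counts: they are whole numbers with nearly equal library totals (5704313 to 5837994), so they are normalized counts that were rounded, and the factors and raw depth are not given in the sources used here.

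Genes reaching 10 or more in 3 or more of the 6 libraries (13260 of 17313) were compared on log2(value + 1) with limma 3.58.1 in R 4.3.3 (intensity trend, group as the only term, two-sided, Benjamini-Hochberg threshold of 0.05 over all tested genes). This scale understates the change of low genes, and no count model was used because the raw reads per gene are not known. Standard errors are those of the fit. On simulated data with 200 changed genes among 13260, the comparison of KO with WT recovered 66% of 2-fold and 81% of 4-fold changes with 7 false calls, and without WT 1 55% and 84% with 7. The simulated noise was independent between genes, whereas in the data 1 component held 78.6% of the variance and split the WT libraries. The layout without WT 1 took its spread from the fit of all 6 libraries. These rates therefore do not carry over to the data.

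Members and gene lists were chosen with earlier results of these data known. Substrate classes follow the family number, so a member may carry another substrate than its class name says, as Slc16a10 does. After the data were seen, Slc7a6os and Slc4a1ap were moved to the class of genes that are no transporters. The genes named are members without overlap and at an unadjusted p under 0.05 (up to 15 per direction by size), the 3 smallest p per class, the 10 highest levels per exonic length, members with known macrophage roles, those at the filter's edge, and 4 of the carriers with other symbols; 1 gene that this rule names is not reported here. The main fit did not pair libraries by replicate number. Alternatives were 3 scalings, 2 pseudocounts, 2 filters, no intensity trend, each library left out, a replicate block, and WT 1 as the only WT library. Promoters came from RefSeq (GRCm38.p6) for 145 of 194 members.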

Additional observations from a re-analysis of the deposited data

How the results depend on the processing

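None of the 194 members passed the adjusted threshold with all libraries under any scaling, pseudocount, filter, variance model or replicate block tried (limma), nor when any library other than WT 1 was left out. Leaving out 1 library at a time gave 0 to 25 members called higher and 0 to 18 called lower, the upper ends without WT 1. At an unadjusted p under 0.05 it gave 16 to 40 higher (all genes 7.19% to 18.7%) and 8 to 47 lower (all genes 3.54% to 14.1%). Without overlap it gave 31 to 49 higher and 32 to 69 lower, where fewer libraries make separation easier. The matching shares of all genes without overlap were not taken, so those counts are no result about the members. Requiring a mean of at least 100 left 147 members and gave 13 higher and 26 lower at an unadjusted p (10.9% and 11.5% of all genes in that fit). Without the intensity trend these were 31 and 22 (14.4% and 7.61% of all genes). With the replicate number as a replicate block they were 28 higher and 28 lower (13.9% and 6.77% of all genes), with 0 adjusted calls. Same-numbered libraries deviated with correlations of 0.53, -0.36 and 0.024, and not every library correlated best with its own number. Deviations from means of 3 libraries depend on each other and carry the WT split, so this check cannot exclude pairing. Scalings moved the median of all genes by at most 0.011. Hdac2 ran from -0.45 to -0.38 and Lyz2 from -0.23 to -0.17 over the left-out libraries, both past the adjusted threshold without WT 1 only (adjusted p = 0.0142 and 0.0498, Lyz2 at -0.22), and Hdac2 was at -0.47 against WT 1. The cause of these changes was not tested.

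Against WT 1 alone the sign turned in 36 of the 194 members, 3 of them called without WT 1 (Slc15a4 lower, and Slc7a7 and Slc2a6 higher, both chosen after their values were seen). The sign could turn only in members whose groups overlap. Among the genes the report names, it turned in Slc15a4 (0.027), Slc20a1 (-0.11), Slc26a6 (0.013), Slc38a9 (0.031), Slc39a8 (-0.065), Slc7a2 (-0.041), Slc7a6os (0.033) and Slc9a4 (0.31). Slc7a8 turned to 0.071 under cyclic loess. Over the left-out libraries, genes that turned ran from -0.049 to 0.060 (Slc39a8), -0.20 to 0.20 (Slc7a11), -0.0084 to 0.23 (Slc7a2), -0.068 to 0.019 (Slc7a8) and -0.38 to 0.077 (Slc9a4). The raw depth is unknown, so counting error of low genes could not be given.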
